A study of Bos taurus with 13 samples.

Results

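Spleen and lymph tissue of cattle were compared through 1 array each, the spleen array and the lymph array, which are 2 of the 13 arrays of the series. Each array set the total RNA of its tissue (channel 2) against total RNA from BovMac (channel 1), a cell line that served as the reference, on a cDNA microarray built from bovine mammary clones. The series holds 6 further tissue arrays against the same reference (adipose tissue, adrenal tissue, ileum, liver, thymus and prepubertal mammary gland of a 136 kg Holstein heifer). It also holds 3 arrays between stages of the mammary gland and 2 of the reference against itself. The value of a gene was its ratio on the spleen array minus its ratio on the lymph array, so that the reference drops out of the difference. The question was what separates the tissue arrays that resemble each other most. The labels give no age, breed or sex for the spleen and lymph samples and no node site for the lymph tissue. They also do not say whether both came from 1 animal. With 1 array per tissue there is no biological replicate, no p-value is given, and a difference compares these samples only.

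The spleen filters blood, and its red pulp macrophages clear aged red cells and return their iron. Lymph nodes filter lymph, and both organs hold lymphocytes in T and B cell zones around stromal scaffolds. In cattle the capsule and trabeculae of the spleen contain smooth muscle. All values come from pieces of whole tissue, in which fewer cells of a type and less RNA per cell cannot be told apart.

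Values are deposited log ratios after centring on the array median, called log units below. The base of the logarithm is not stated. A difference of 0.3 log units is 1.23-fold if the base is 2 and 1.35-fold if it is the natural log. Neither the order of the channels in the ratio nor the dyes are stated, so a higher ratio can stand for more or for less RNA in the tissue. Sides are therefore named as "higher ratio on the spleen array" or "higher ratio on the lymph array", and with the sign turned every such side swaps. Each error is the SD over the spots of a gene, which are technical repeats on 1 array (3 spots unless stated). A gene was counted when its difference was at least 0.3 log units in size and larger than the SD of its spot differences.

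Of 706 genes named on the array, 702 had at least 2 spots with a value on both arrays. The rule counted 21 genes with a higher ratio on the spleen array, 2.99% of those compared, and 11 with a higher ratio on the lymph array, 1.57%. Most differences were small: 359 genes (51.1%) differed by under 0.1 log units and 551 (78.5%) by under 0.2. The middle of the distribution lay near 0, with a median of -0.01, quartiles of -0.10 and 0.093 and an SD over genes of 0.17. By sign alone, 331 genes lay on the spleen side and 371 on the lymph side, the background for side counts in lists. The spleen side reached farther than the lymph side. The highest difference was 0.88 for LASP1 and the lowest -0.46 for C3, and 9 of the 41 genes past 0.3 in size, C3 among them, were not counted because their spots scattered more than the difference. Every spot of the spleen array lay above every spot of the lymph array for 112 genes, 16.0%, and below for 135, 19.2%.

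**Figure D1:**
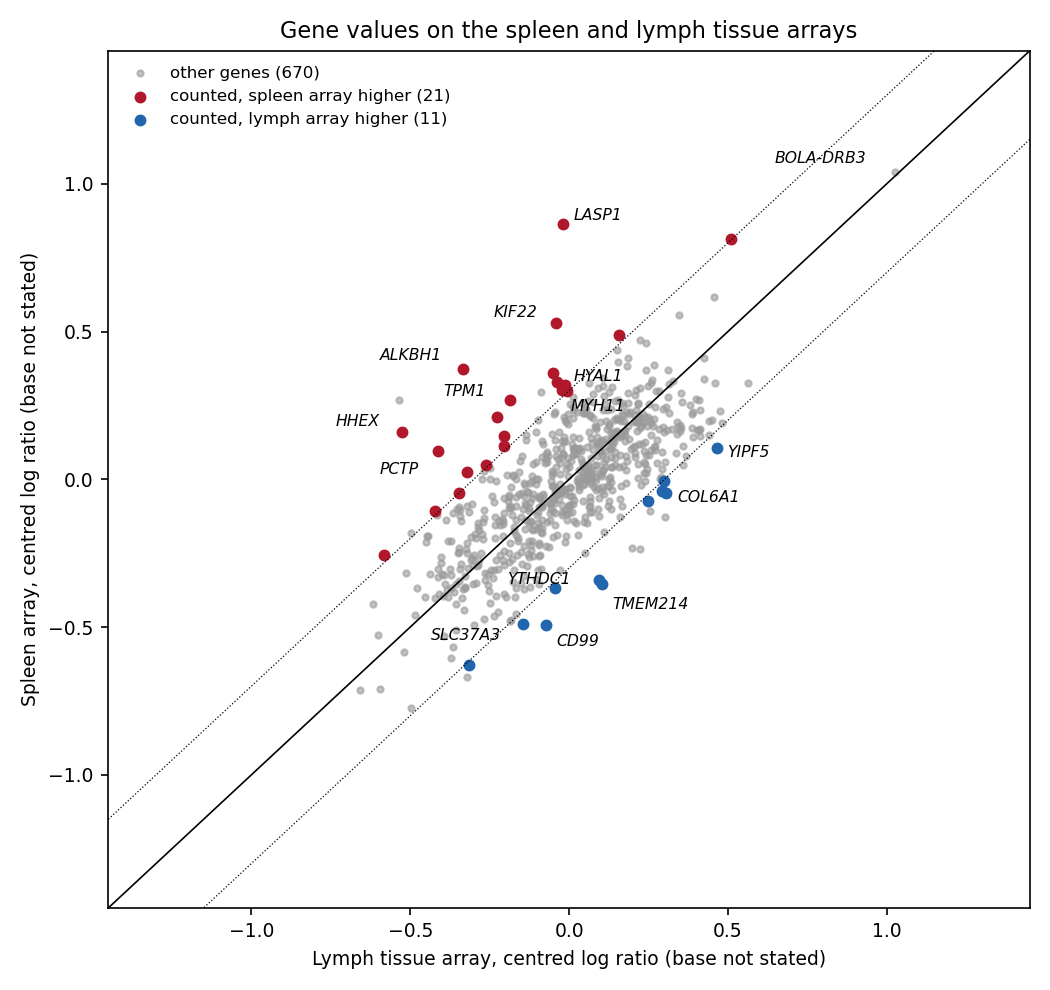
Each point is 1 of the 702 genes, with its centred log ratio on the lymph array (horizontal) and on the spleen array (vertical). The solid line marks equal values and the dotted lines a difference of 0.3 log units; the 21 and 11 counted genes lie outside the dotted lines, while BOLA-DRB3 lies near the solid line at the upper right.

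The background for these counts came from the same rule on other arrays. On the first reference against reference array, where both channels held the same RNA, 97 of 703 genes (13.8%) passed the rule against 0, and on the second 99 of 681 (14.5%). By the same rule against 0, 16.0% of genes passed on the spleen array and 18.3% on the lymph array, so the single tissue arrays stood only slightly above the reference arrays. Between arrays, 136 of 680 genes (20.0%) were counted between the reference arrays, and 4.56%, over both sides, between spleen and lymph tissue. Reading the 32 counted genes as tissue differences is limited by this. The spots of the second reference array ordered the clones poorly (mean Spearman rank correlation between spots 0.11), against 0.58 on the first, 0.78 on the spleen array and 0.85 on the lymph array.

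Among the 28 pairs of tissue arrays, spleen and lymph tissue had the smallest spread of differences, the highest correlation across genes and the fewest counted genes. Pearson's r across genes was 0.72 and Spearman's rank correlation was 0.72. These describe 2 arrays that share the reference and the platform, and genes are not replicates. On both arrays the same side of 0 was taken by 558 genes (79.5%). The next pair by spread was adipose tissue and liver, with an SD of 0.19 and 60 counted genes, followed by adipose tissue and spleen, with 0.20 and 76. The SD over genes on single arrays was 0.16 for adipose tissue and 0.17 for liver, against 0.22 for spleen and 0.23 for lymph tissue. Thymus, the remaining lymphoid organ, stood farther from both: 138 of 701 genes (19.7%) were counted between spleen and thymus and 115 of 702 (16.4%) between lymph tissue and thymus.

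**Figure D2:**
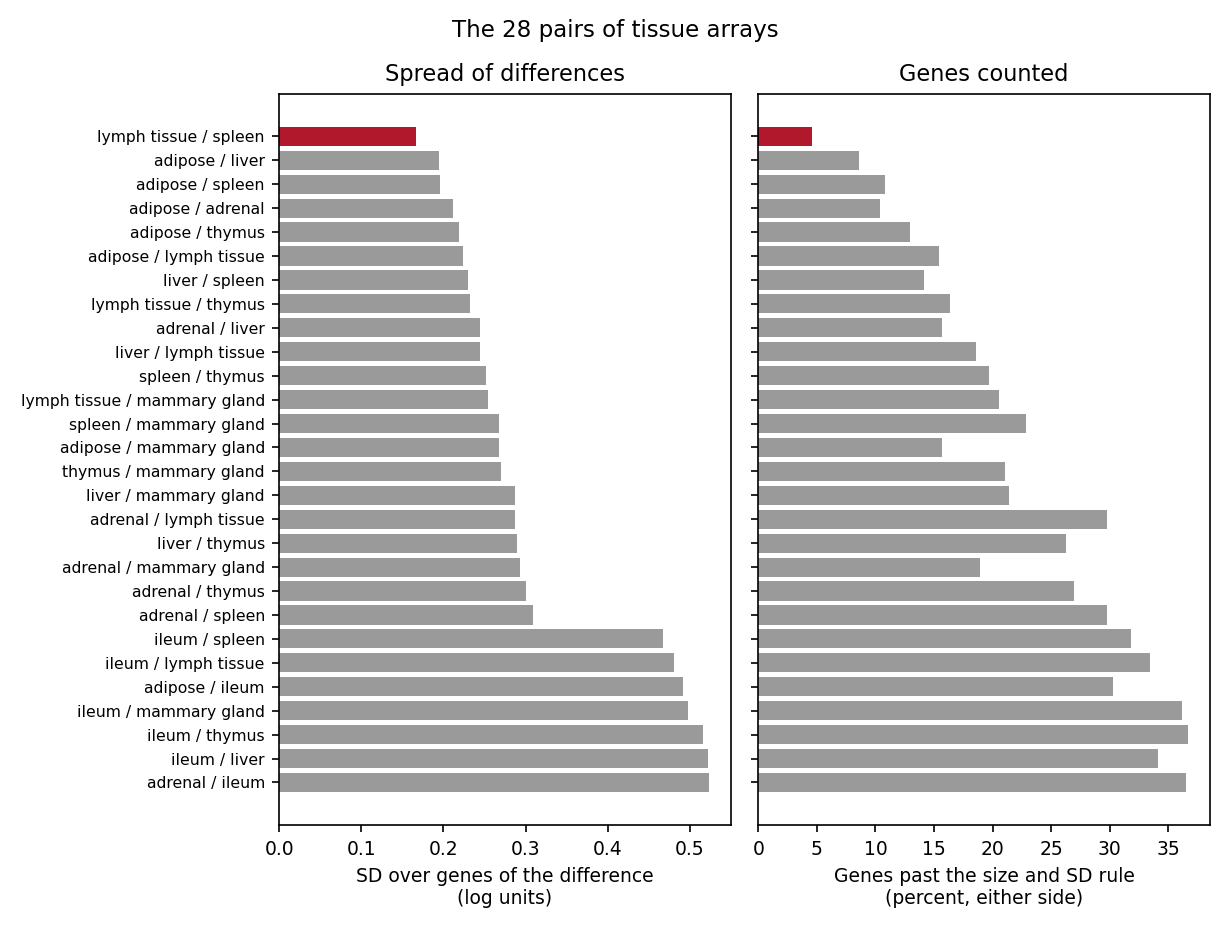
Bars give, for each of the 28 pairs of tissue arrays, the SD over genes of the difference in log units (left) and the percent of genes past the size and SD rule (right). Spleen and lymph tissue (red) have the lowest value in both panels, with an SD of 0.17 and 4.56% of genes.

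The gene farthest from 0 on both arrays was BOLA-DRB3, a beta chain of the class II molecules by which antigen-presenting cells show peptides to helper T cells. It had a ratio of 1.04 ± 0.11 on the spleen array and 1.03 ± 0.05 on the lymph array. No other gene passed 1 log unit in size on either array, and the BOLA-DRB3 difference of 0.014 ± 0.071 was smaller than the SD over spots. The same gene had 0.28 on the thymus array, 0.42 on the mammary array, 0.0095 on the liver array and 3.17 on the ileum array. Spleen and lymph tissue thus lay together, above thymus and below ileum. CD74, the invariant chain that escorts class II molecules and the other measured gene of that list, did not share this and had 0.19 ± 0.056 on the spleen array and 0.48 ± 0.085 on the lymph array, a difference of -0.29 ± 0.10 that stayed just under the size limit.

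Of the 5 measured genes of general leukocyte identity, 3 differed little between the arrays. PTPRC, the CD45 phosphatase of leukocytes, had -0.093 ± 0.13 on the spleen array and -0.10 ± 0.13 on the lymph array. LCP1, the leukocyte actin bundler plastin, had -0.34 ± 0.083 and -0.35 ± 0.03 respectively, and CD47, a signal against uptake by macrophages, had 0.41 ± 0.14 and 0.42 ± 0.071. Their differences of 0.0024, 0.0032 and -0.012 were below the SD over spots. RAC2, a small GTPase of blood cells, was lower on the spleen array, at -0.47 ± 0.039 against -0.27 ± 0.04, a difference of -0.20 ± 0.067. ARPC5, an actin-nucleating subunit made by most cells, differed by 0.81 ± 0.82, so its spots did not hold together and it was not counted.

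The tissue labels could be checked against few defining markers. Of 29 lists of cell type and pathway genes, 6 had 0 measured genes: red blood cells, platelets, T cells, B cells, plasma cells and lymph node stroma. A further 4 lists had 1 or 2. Iron handling by red pulp macrophages rested on SLC40A1, the iron exporter ferroportin, with -0.30 ± 0.09 on the spleen array and -0.32 ± 0.10 on the lymph array. The granulocyte list rested on LTF, the iron-binding lactoferrin also secreted in milk, with 0.30 ± 0.042 and 0.28 ± 0.03. Neither separated the arrays, with differences of 0.018 ± 0.046 and 0.017 ± 0.041. Of 4 haem and iron genes on the array, listed after the values were seen, 0 were counted. At 4.56% of all genes counted, this is near the overall share. ALAS1, the first enzyme of haem synthesis, differed by 0.11 ± 0.086. ALAD, the next enzyme, differed by -0.088 ± 0.063, and NCOA4, which delivers ferritin for breakdown, by -0.027. Few markers that define spleen or lymph node were measured, and the part of cell composition in any difference was not tested.

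Smooth muscle genes included a pair with a higher ratio on the spleen array. MYH11, the heavy chain of smooth muscle myosin, had 0.30 ± 0.03 on the spleen array and -0.023 ± 0.029 on the lymph array, a difference of 0.32 ± 0.045. TPM1, the alpha-tropomyosin that winds along actin filaments, had 0.27 ± 0.019 and -0.19 ± 0.076, a difference of 0.45 ± 0.085. For both genes every spot on the spleen array lay above every spot on the lymph array, as for 16.0% of all genes. The remaining measured genes of the list of 4 stood closer: ACTG2, the enteric smooth muscle actin, differed by 0.10 ± 0.047 and VCL, the adhesion protein vinculin, by -0.084 ± 0.095 (6 spots). The list's median was 0.21, beside -0.01 over all genes. Of its 4 genes, 2 were counted on the spleen side, beside 2.99% of all genes.

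A wider list of 20 actin filament and contractile genes, drawn up after the values were seen, had 13 genes on the spleen side and 7 on the lymph side. Its median was 0.084. The list was not complete, and the actin bundler LCP1 (0.0032) was left out of it. LASP1, an actin-binding LIM and SH3 domain protein, had the highest difference of all genes, 0.88 ± 0.83, yet its spots on the spleen array ran from 0.076 to 1.27 and overlapped the lymph array. DSTN, the actin-severing destrin, differed by 0.24 ± 0.093. Against these, LIMA1, which bundles actin, was counted on the lymph side with -0.0065 ± 0.13 on the spleen array and 0.30 ± 0.074 on the lymph array. ACTN1, the cross-linker alpha-actinin, differed by -0.20 ± 0.079. The contractile genes thus did not all lie on 1 side.

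Among lists with at least 3 measured genes, the macrophage and lysosome list had the highest median, 0.23 over 5 genes. Of these, 2 were counted on the spleen side and 0 on the lymph side, beside 2.99% and 1.57% of all genes. HYAL1, the lysosomal hyaluronidase, had 0.32 ± 0.041 on the spleen array and -0.012 ± 0.13 on the lymph array, a difference of 0.33 ± 0.092. Its spots did not overlap, as for 16.0% of all genes on this side. ASAH1, the acid ceramidase, had 0.047 ± 0.18 and -0.26 ± 0.11, a difference of 0.31 ± 0.26, hardly more than its scatter. SCARB2, the lysosomal receptor for glucocerebrosidase, differed by 0.23 ± 0.22, the membrane protein LAMP2 by 0.082 ± 0.06 (6 spots), and CD36, a scavenger receptor of macrophages, fat cells and vessels, by -0.063 ± 0.10. A list of 8 lysosomal enzymes and membrane proteins, again drawn up after the values were seen, had a median of 0.11. Of these genes 6 lay on the spleen side and 2 on the lymph side. Those on the lymph side were LIPA, the acid lipase, with -0.05 ± 0.085 (6 spots), and FUCA1, the fucosidase, with -0.14 ± 0.075. This list was not complete. It left out MFSD1, a lysosomal membrane transporter, which lay on the lymph side with -0.30. The transporter SLC37A3, counted on the lymph side with -0.34, was not in it either.

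**Figure D3:**
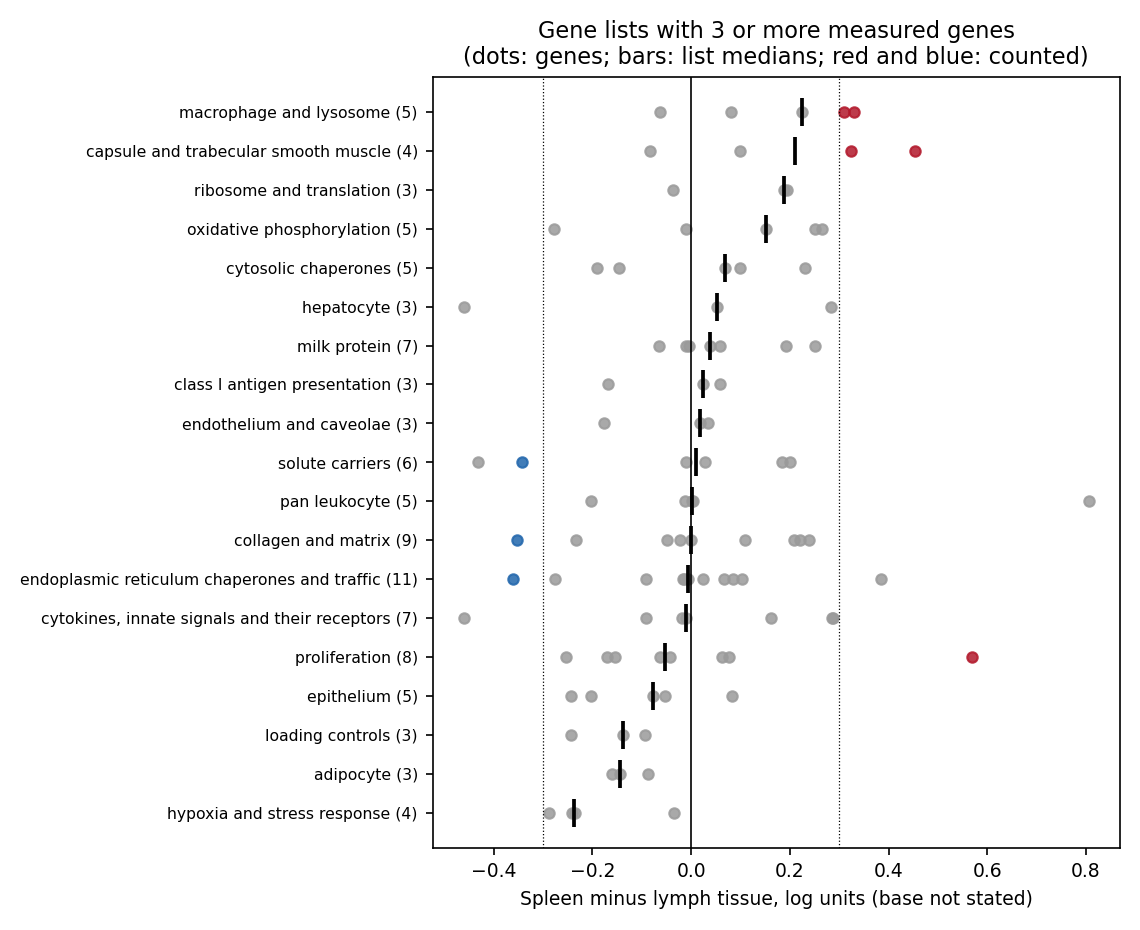
Dots give the spleen minus lymph difference in log units of each measured gene, for the 19 gene lists with at least 3 measured genes (number in brackets). Black bars are list medians and coloured dots are counted genes; macrophage and lysosome (median 0.23) and smooth muscle (0.21) stand at the top, and the 4 hypoxia and stress genes (-0.24) at the bottom.

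Among regulators of gene expression and growth, HHEX and KIF22 had large spleen side differences with every spot on that side. HHEX, a homeobox factor of blood and liver development, had 0.16 ± 0.39 on the spleen array and -0.53 ± 0.16 on the lymph array, and its spot differences ran from 0.55 to 0.95 around 0.68. It was also lower than spleen on the thymus array, -0.37, the liver array, -0.94, and the adipose array, -1.74. KIF22, a kinesin that moves chromosomes in mitosis, had 0.53 ± 0.28 and -0.042 ± 0.045, a difference of 0.57 ± 0.26. The proliferation list did not share this side: 5 of its 8 genes lay on the lymph side and its median was -0.053. PRC1, which bundles the spindle midzone, differed by -0.25 ± 0.064, the helicase subunit MCM6 by -0.17 ± 0.047, and PCNA, the replication clamp, by -0.16 ± 0.06.

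PCTP, which carries phosphatidylcholine between membranes, had 0.10 ± 0.036 on the spleen array and -0.41 ± 0.073 on the lymph array, a difference of 0.51 ± 0.067. Its lymph value was the nearer to thymus (-0.82) and mammary gland (-0.52). FGFBP1, a carrier that frees fibroblast growth factors from the matrix, had 0.36 ± 0.072 and -0.051 ± 0.12, a difference of 0.41 ± 0.046. RABGEF1, an activator of the endosomal GTPase Rab5, had 0.15 ± 0.072 and -0.20 ± 0.09, a difference of 0.35 ± 0.03. Each of these genes had spleen spots clear of its lymph spots and an SD of the difference under 0.1, so they were among the most even of the counted genes. Spleen spots lay clear above lymph spots for 16.0% of all genes.

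Surface and signalling genes on the same side were also counted. CD151, a tetraspanin that binds laminin-binding integrins, had 0.30 ± 0.072 on the spleen array and -0.005 ± 0.10 on the lymph array, a difference of 0.30 ± 0.062. LGR4, a receptor for R-spondins, had -0.047 ± 0.048 and -0.35 ± 0.048, a difference of 0.30 ± 0.044. TBK1, a kinase that switches on type I interferon genes, had -0.11 ± 0.13 and -0.42 ± 0.041, a difference of 0.31 ± 0.14, and was the sole measured gene of the interferon list. USP4, a deubiquitinating enzyme, had 0.33 ± 0.25 and -0.039 ± 0.31; its spots overlapped between arrays although the spot differences held together at 0.37 ± 0.068. UBXN4, which acts in the removal of misfolded proteins, PHYH, a peroxisomal fatty acid hydroxylase, and CXXC1, which binds unmethylated CpG sites, stayed under the size limit with steady spots, at 0.30 ± 0.041, 0.26 ± 0.019 and 0.27 ± 0.023.

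The other genes counted on the spleen side were ALKBH1, SELENOF, SLC44A2, VAPA, TSN, PERP and ABCE1. ALKBH1, a nucleic acid demethylase, had 0.37 ± 0.42 on the spleen array and -0.33 ± 0.21 on the lymph array, a difference of 0.71 ± 0.62 carried largely by 1 spot. The differences of SELENOF, a selenoprotein of the endoplasmic reticulum, and SLC44A2, a choline transporter-like protein, were 0.44 ± 0.34 and 0.35 ± 0.28. VAPA, which tethers the endoplasmic reticulum to other membranes, differed by 0.33 ± 0.19, the nucleic acid binding protein TSN by 0.33 ± 0.13, PERP, a protein of cell junctions, by 0.32 ± 0.16 over 2 spots, and ABCE1, which recycles ribosomes, by 0.30 ± 0.22. The spots of SELENOF, SLC44A2, PERP and ABCE1 overlapped between the arrays.

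On the lymph side, collagen VI and the early secretory pathway supplied counted genes with little scatter. COL6A1, the alpha 1 chain of the beaded-filament collagen VI, had -0.047 ± 0.045 on the spleen array and 0.31 ± 0.11 on the lymph array, a difference of -0.35 ± 0.073. Its thymus value of 0.33 was close to that of lymph tissue. The partner chain COL6A2 did not follow, with 0.39 ± 0.0098 on the spleen array, 0.27 ± 0.056 on the lymph array and a difference of 0.12 ± 0.054 to the opposite side. YIPF5, a membrane protein of traffic between endoplasmic reticulum and Golgi, had 0.10 ± 0.035 and 0.46 ± 0.0063, a difference of -0.36 ± 0.036, and its lymph value lay above all other tissue arrays.

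Matrix genes as a whole were balanced between the sides. Of the 9 measured genes of the collagen and matrix list, 4 lay on the spleen side and 5 on the lymph side. COL6A1 alone was counted, beside 1.57% of all genes counted on the lymph side. The proteoglycans VCAN and BGN differed by 0.24 ± 0.10 and 0.22 ± 0.054 and the adhesive protein POSTN by 0.21 ± 0.13 (6 spots), while TNC, a matrix protein of remodelling tissue, differed by -0.23 ± 0.13. The list of endoplasmic reticulum genes was balanced too, with 5 of 11 on the spleen side and a median near 0. YIPF5 was its counted gene, beside the same 1.57% of all genes.

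CD99, a surface glycoprotein used by leukocytes to cross vessel walls, had -0.49 ± 0.14 on the spleen array and -0.072 ± 0.017 on the lymph array, a difference of -0.42 ± 0.16. Its spleen value was below those of all other tissue arrays. TMEM214, a membrane protein of the endoplasmic reticulum, had -0.36 ± 0.088 and 0.10 ± 0.15, a difference of -0.46 ± 0.24. SLC37A3, a member of the sugar phosphate exchanger family, had -0.49 ± 0.087 and -0.15 ± 0.12, a difference of -0.34 ± 0.067, and here too the spleen value was the one that stood below every other tissue. In the spots of these genes the arrays did not overlap, as for 135 of all 702 genes (19.2%) on this side. They were among the 15 lymph side genes chosen by their spot nearest to 0, of which 14 did not overlap.

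Nuclear RNA processing gave YTHDC1 and CCNL2. YTHDC1, a reader of methylated adenosine in nuclear RNA, had -0.34 ± 0.25 on the spleen array and 0.093 ± 0.25 on the lymph array, a difference of -0.43 ± 0.10. CCNL2, a cyclin that associates with splicing factors, had -0.37 ± 0.066 and -0.045 ± 0.043, a difference of -0.32 ± 0.085. SRSF10, a splicing factor, differed by -0.25 ± 0.047 with steady spots but stayed under the size limit. Over the 31 measured splicing and pre-mRNA factors on the array, a list drawn up after the values were seen, 14 lay on the spleen side and 17 on the lymph side, with a median of -0.021, so the counted pair did not stand for the whole group. These 2 counted of 31 stand beside 1.57% of all genes counted on the lymph side. SF3B3, a spliceosome subunit, differed by 0.22 ± 0.13 to the spleen side.

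The rest of the counted lymph side consisted of C6H4orf3, with a difference of -0.33 ± 0.079, SHTN1, a cytoskeletal adaptor of growing axons, with -0.32 ± 0.089, and POLR1E, an RNA polymerase I subunit, with -0.31 ± 0.19, besides LIMA1. Smaller but even differences were found for MFSD1, a lysosomal membrane transporter (-0.30 ± 0.044), PDGFA, a growth factor of mesenchymal cells (-0.29 ± 0.12), MCMBP, which binds the replicative helicase (-0.28 ± 0.073), and RIPK3, a kinase of necroptosis (-0.25 ± 0.038). The hypoxia and stress list lay wholly on the lymph side, where 371 of all 702 genes lay. None of its 4 genes was counted, beside 4.56% of all genes. GEM, a small GTPase, differed by -0.29 ± 0.12 and NDRG1, a stress-induced gene, by -0.24 ± 0.03. EGR1, an immediate early factor, differed by -0.24 ± 0.046 and ATF4, the integrated stress factor, by -0.035 ± 0.15.

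**Figure D4:**
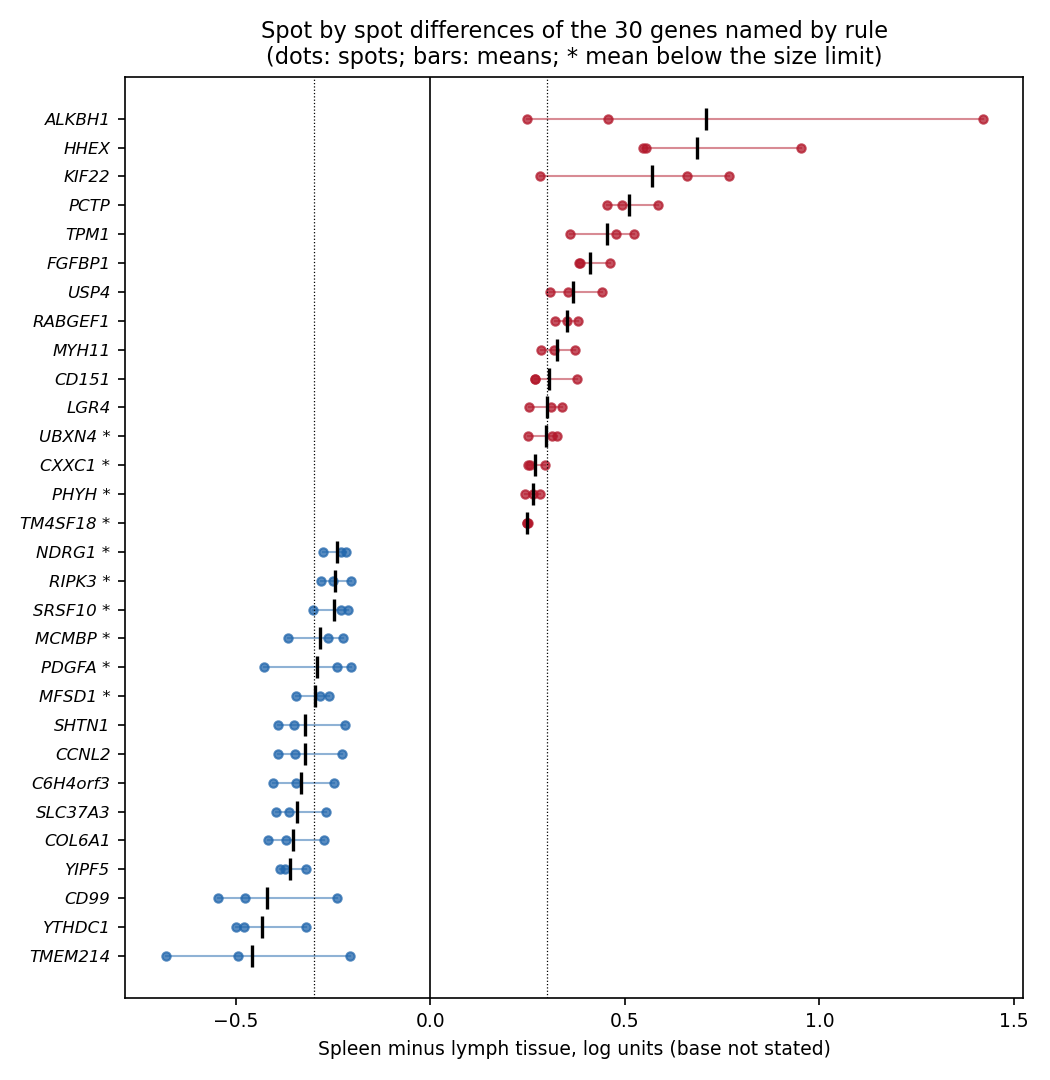
Dots are the spleen minus lymph differences of single spots in log units, for the 15 genes on each side whose spot nearest to 0 lay farthest from it. Black bars are means, dotted lines mark 0.3 log units, and a star marks a mean below that size; ALKBH1 spreads widest and TM4SF18 (0.25) least.

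Of 7 measured cytokine and innate genes 0 were counted, which at 4.56% of all genes counted is near the overall share. The largest spleen side differences belonged to CSF3, the granulocyte colony-stimulating factor, with 0.44 ± 0.05 on the spleen array and 0.15 ± 0.026 on the lymph array (0.29 ± 0.06), and to IL6, with 0.038 ± 0.31 and -0.25 ± 0.40 (0.29 ± 0.11). Complement C3 had the lowest mean of all genes, -0.46 ± 0.76, and the widest scatter of this list. In a wider list of 36 leukocyte and innate genes, drawn up after the values were seen, 16 lay on the spleen side and 20 on the lymph side. Its median of -0.011 was close to that of all genes. TBK1 was its sole counted gene, beside 4.56% of all genes. The list was not complete. Among genes left out, CD99 (-0.42, counted) and CD74 (-0.29) lay on the lymph side, and LTF (0.017) and ARPC5 (0.81, not counted) on the spleen side.

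Metabolic lists were small, and with 4.56% of all genes counted, a count of 0 in them is near the overall share. Of 5 oxidative phosphorylation genes, 3 lay on the spleen side with a median of 0.15 and 0 were counted, and SDHD, a subunit of succinate dehydrogenase, differed by -0.28 ± 0.24 to the lymph side. The 3 genes of the ribosome and translation list had a median of 0.19 and the 3 adipocyte genes one of -0.14, with 0 counted in either list. RPL9, the ribosomal protein among them, lay on the lymph side with -0.037 ± 0.37. EIF5A, a translation factor, differed by 0.19 ± 0.47, less than its scatter. Among loading controls, ACTB, cytoplasmic actin, differed by -0.14 ± 0.19 over its 150 spots, HPRT1, a purine salvage enzyme, by -0.24 ± 0.20 and YWHAZ, a 14-3-3 protein, by -0.094 ± 0.043. All 3 of these controls lay on the lymph side, as did 371 of the 702 genes.

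Each of the 15 genes per side whose spot nearest to 0 lay farthest from it was then placed among the 6 other tissue arrays. On the spleen side, the spleen value lay outside the range of the other tissues for 4 genes and the lymph value for 0. On the lymph side, the spleen value lay outside for 6 genes and the lymph value for 7. Over all 702 genes the spleen value lay outside for 175 (24.9%) and the lymph value for 178 (25.4%). HHEX, KIF22 and ALKBH1 had spleen values above all other tissues, as did MYH11, which had 0.28 on the ileum array and 0.20 on the liver array. On the thymus array KIF22 had 0.32 and ALKBH1 had 0.31, each below its spleen value by less than the SD over its spleen spots. On the lymph side, YIPF5, NDRG1 and RIPK3 had lymph values above all other tissues.

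**Figure D5:**
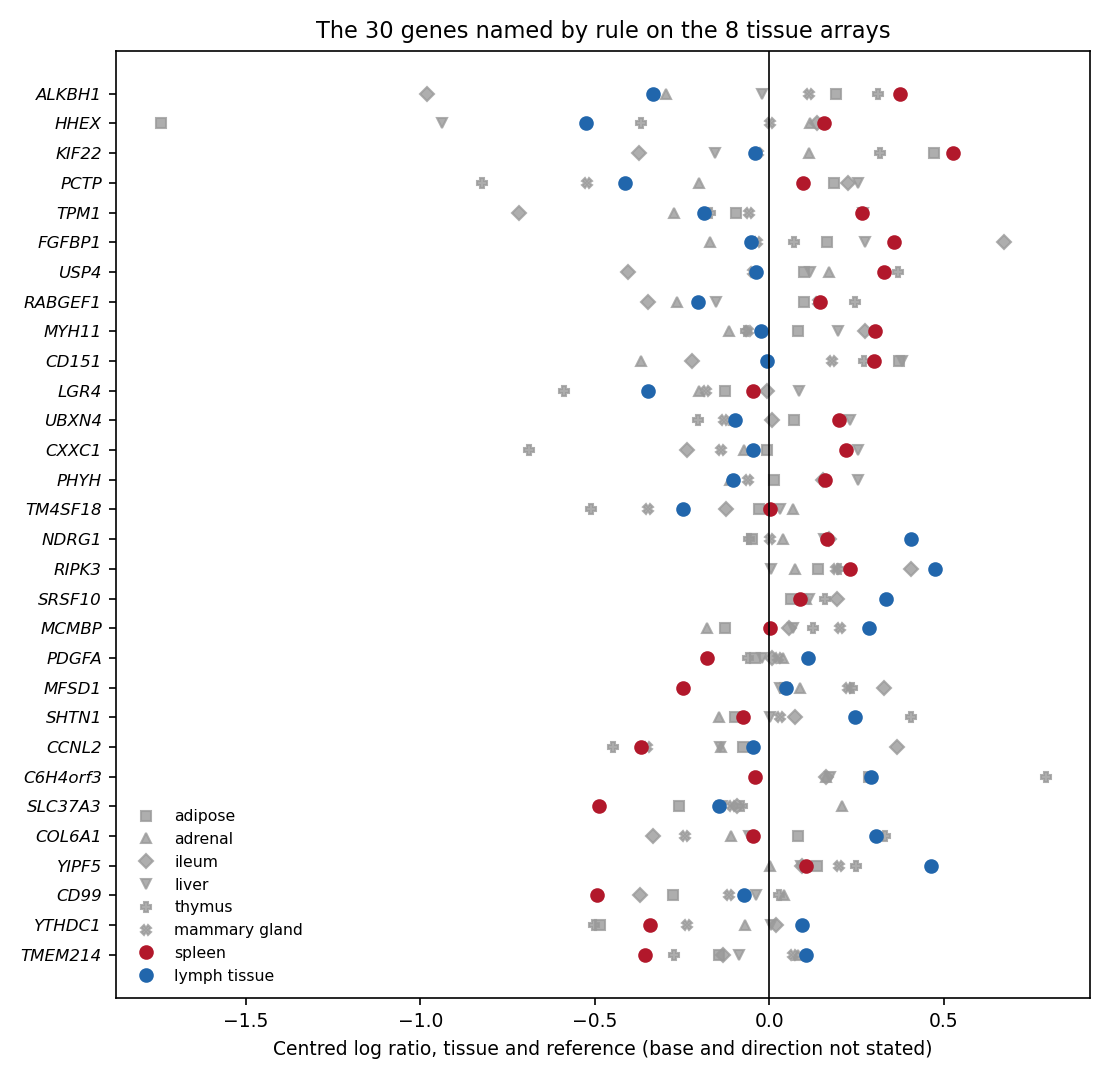
Centred log ratios of the 15 genes on each side named by the spot rule, on all 8 tissue arrays: spleen (red), lymph tissue (blue) and the 6 other tissues (grey symbols). Spleen lies at the right edge for HHEX and KIF22, and lymph tissue lies at the right edge for YIPF5 and RIPK3.

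The counted genes each rested on 1 cDNA clone. Of the 625 genes with 1 clone, 32 were counted (5.12%), and of the 77 genes with more than 1 clone 0 were counted once their clones were averaged. Clone by clone, and without ACTB, 10 of the 167 clones of 76 such genes passed the rule (5.99%), and for 4 of the 10 the gene's other clones lay on the same side. POSTN was one of these, with clones at 0.32 and 0.094, and so was FSTL1, a secreted glycoprotein, with -0.30 and -0.13. TRAF6, an adaptor of innate receptors, had both clones counted on opposite sides, at -0.50 ± 0.054 and 0.31 ± 0.14. Across the 77 genes, the differences of the first 2 clones had a Pearson's r of -0.027 and took the same sign in 40 genes (51.9%). Repeated spots of a clone held together better, with a mean Spearman rank correlation of 0.53 over 1226 clones. Whether the clones of a gene detect the same transcript was not tested.

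Of the 32 counted genes, 16 were counted under each of 7 other settings of the calculation. Not all of these settings could drop a gene. Averaging per accession could drop none of the 32, because each rested on 1 clone. A minimum of 3 spots could drop only genes with fewer spots. On the spleen side the 16 genes were HHEX, HYAL1, KIF22, LASP1, PCTP, SELENOF, SLC44A2, TPM1, USP4 and VAPA, and on the lymph side CD99, COL6A1, SLC37A3, TMEM214, YIPF5 and YTHDC1. MYH11, ASAH1, CD151 and TBK1 were among those that missed the rule once the arrays were scaled to a common spread. FGFBP1, RABGEF1 and ALKBH1 missed it once spots were centred within consecutive stretches of rows.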

How the data were processed

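The authors deposited 1 log ratio for each of 3888 spots per array. The unit was recorded as other, because background correction, normalization, centring, channel order and base of the log ratio are not stated in the labels. By the platform annotation, 2538 spots stood for 1 gene, 30 for several and 1320 for no named gene. Of 706 genes, 703 were found by identifier in RefSeq (ARS-UCD2.0), where 0 symbols differed. No coordinates or sequences were used.

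An exact 0, found for 174 spots on the spleen array and 166 on the lymph array, was taken as missing, since an unannotated stretch of rows stood at 0 throughout on both. Each array was centred on its median (deposited medians 0.025 for spleen and 0.0147 for lymph), and a gene's value was the mean over its spots with a value on both arrays, with a minimum of 2. The number of spots limits the precision. No intensities were used, and no model was fitted.

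Besides the gene lists' members, the genes named were the 15 per side with at least 3 spots, all on 1 side of 0, whose spot nearest to 0 lay farthest from it. The genes, 29 lists and rules were chosen with earlier results of these data known, and 7 wider lists after the values were seen. The calculation was tested on simulated data. Python 3.11.15, numpy 2.4.6, pandas 2.3.3, scipy 1.17.1 and matplotlib 3.10.9 were used.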

Additional observations from a re-analysis of the deposited data

How the results depend on the processing

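With 1 array per tissue, no replicate could be left out. No paired analysis was possible because each tissue has 1 array and the labels give no shared replicate numbers. The result was recomputed without centring, with exact zeros kept, with a minimum of 3 spots, with the median over spots, with arrays scaled to a common median absolute deviation, with centring within consecutive stretches of rows, and per accession. Spleen and lymph tissue stayed the closest of the 28 pairs by the SD of differences under each, and 0 values of the named or counted genes changed side. Leaving out the centring could not change this place, because shifting a whole array leaves that SD as it was. The sides of genes were partly fixed in advance too. Genes named by the spot rule had every spot difference on 1 side of 0. The median over spots and the minimum of 3 spots therefore could not change their side. Each counted gene rested on 1 clone, so averaging per accession could not change its value. List medians near 0 did change sign: with the median over spots, pan leukocyte genes went to -0.028, class I genes to -0.046, cytokine genes to 0.039 and matrix genes to 0.014. With centring within stretches, pan leukocyte genes went to -0.019, cytokine genes to 0.061, endothelial genes to -0.026 and endoplasmic reticulum genes to 0.016. Without centring, cytokine, matrix and endoplasmic reticulum genes, with zeros kept, matrix genes, and with scaling, pan leukocyte and matrix genes took small values of the opposite sign. With scaling, the SD of the differences fell from 0.17 to 0.15 while the size limit stayed at 0.3, which acts as a stricter limit. Scaling to a common spread gave 13 counted genes on the spleen side and 6 on the lymph side, and also lost ABCE1, C6H4orf3, CCNL2, LGR4, LIMA1, PERP, POLR1E, SHTN1 and TSN. Centring within stretches gave r = 0.66 and 35 counted genes, 25 of them among the 32, and also lost LGR4, LIMA1, SHTN1 and TBK1. The median over spots gave 37 counted genes, 26 of them among the 32, and lost ALKBH1, ASAH1, CD151, LIMA1, POLR1E and TSN, a minimum of 3 spots lost PERP, as did keeping the zeros, and leaving out the centring lost LIMA1. A size limit of 0.2 in place of 0.3 gave 69 and 58 genes, and a limit of 0.5 gave 5 and 0, which is what a looser and a stricter limit do. The causes of the other changes were not tested.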

Other observations

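Clones without a gene name made up 385 of the clones with values on both arrays, outside the stretch at exact 0. By the same rule 35 of them (9.09%) were counted, beside 4.56% of the named genes. Of these, 18 lay on the spleen side and 17 on the lymph side. Differences over the 385 clones ran from -0.85 to 2.40 log units. The last 48 of the 385 clones in row order had a median of 0.15 and 10 counted clones (20.8%), 8 of them on the spleen side. The other 337 had a median of -0.013 and 7.42% counted, and the median over all 385 was 0.0063. What these clones encode was not analysed here.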
